A study of Homo sapiens with 18 samples.

Results

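KLK5, KLK6, KLK7, KLK8, KLK10, KLK11, KLK12 and KLK13 are 8 members of the kallikrein-related peptidase family. They were taken by gene symbol from a table of raw read counts for 35044 genes, in which each of the 8 has a row. They were chosen by their CPM in both lines over the 6 conditions, so every difference between the lines is given as a description, without a test. Levels are CPM, the counts of a gene scaled to a fixed library total, with TMM library sizes, TMM being a scaling that sets the bulk of genes equal between libraries.

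The RNA-seq libraries came from 2 sublines of HCC1937, a breast cancer cell line that carries a truncating BRCA1 mutation. HCC1937-EV cells carried an empty vector, and HCC1937-OE-BRCA1 cells carried the same background mutation together with overexpressed wild-type BRCA1. Each line was sequenced untreated (0 h) and after 12 h and 24 h with the PARPi olaparib, an inhibitor of the DNA repair enzyme PARP, in 3 libraries per condition and 18 in all. The 0 h libraries also bear the treatment label Olaparib, and the genotype label of HCC1937-EV reads WT; the study describes the 0 h cells as untreated and the line as BRCA1 mutated. Whether replicates were separate cultures is not given in the sources used here, so the p-values measure the spread between these libraries, which may be technical. Totals ran from 15081973 to 17571922 counts per library.

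Kallikreins are secreted serine proteases that are made as inactive precursors and switched on when another protease removes a short N-terminal stretch. In skin and other stratified epithelia they form a cascade: trypsin-like KLK5 activates itself and other precursors, chymotrypsin-like KLK7 and trypsin-like KLK8 act downstream on the proteins that hold cells together, and Kazal-type, Kunitz-type and serpin inhibitors hold the cascade in check. Their genes lie side by side on chromosome 19, and several members are known for altered expression in breast and ovarian cancer.

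The line labels were compared with marker genes before the kallikreins were read. The epithelial adhesion gene EPCAM had 0 or 1 count in each HCC1937-EV library and 252 to 352 CPM in HCC1937-OE-BRCA1. CDH1, which encodes E-cadherin, was at 0.313 to 1.20 CPM against 329 to 488 CPM. The basal keratin KRT5 was at 0 to 2 counts per library against 1062 to 1742 CPM, and KRT17 at 1.86 to 5.97 CPM against 1229 to 2313 CPM. KRT14 was at 0 to 2 counts per library against 21.0 to 48.9 CPM. EGFR, the remaining basal marker, was present in both, at 139 to 202 CPM against 235 to 337 CPM. The simple epithelial keratins KRT8 and KRT18 were high in both, KRT8 at 1683 to 2182 CPM in HCC1937-EV and 2511 to 4385 CPM in HCC1937-OE-BRCA1. Libraries labelled HCC1937-EV therefore lacked EPCAM and KRT5, while retaining KRT8, KRT18 and EGFR.

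The overexpressed gene separated the lines less than EPCAM, CDH1, KRT5 and KRT17 did. BRCA1 stood at 118 ± 7.70 CPM (SD, n = 3) in untreated HCC1937-EV and 138 ± 24.0 CPM (SD, n = 3) in untreated HCC1937-OE-BRCA1, and the libraries overlapped. At 12 h the levels were 110 ± 13.2 CPM and 123 ± 7.99 CPM (SD, n = 3 each), again with overlap. At 24 h they were 94.5 ± 4.47 CPM and 161 ± 7.07 CPM (SD, n = 3 each), without overlap. Counts of BRCA1 do not separate transcripts of the vector from those of the cell's own gene. Across genes, Pearson's r between libraries was 0.981 to 0.995 over the 72 pairs within a line and 0.780 to 0.801 over the 81 pairs between lines. In what follows the line names are those of the labels, and because these are bulk samples, fewer cells that make a transcript and less transcript per cell cannot be told apart.

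Markers of other cell types were low or split by line. COL1A1, a fibroblast collagen, was at 89.0 to 144 CPM in HCC1937-EV and 5.85 to 11.4 CPM in HCC1937-OE-BRCA1, while its partner COL1A2 had at most 6 counts in any library. The leukocyte genes PTPRC and CD14, the latter the more abundant, summed to 0.240 to 0.745 CPM in HCC1937-EV and 33.7 to 86.6 CPM in HCC1937-OE-BRCA1; PTPRC was at 0 in every HCC1937-EV library and at 0.431 to 2.22 CPM in HCC1937-OE-BRCA1. PECAM1, an endothelial gene, was at 0.740 to 2.65 CPM against 9.92 to 20.7 CPM. The melanocyte genes PMEL and MLANA summed to 1.79 to 4.73 CPM over all 18 libraries. The part of these differences in the kallikrein levels was not tested.

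All 8 kallikrein genes lie on the minus strand between chr19:50943303-51065114 (GRCh38, GENCODE release 29), a stretch of 121812 bases. The upstream sequences of 3 members are printed because KLK5 and KLK6 had the highest levels per kilobase and KLK7 was the member called after olaparib. They come from RefSeq promoter windows on GRCh38.p14, read 5′ to 3′ on the minus strand, and stop before the first annotated exon base. Capitals mark GC boxes (GGGCGG, or CCGCCC on the other strand) and E-boxes (CACCTG, or CAGGTG on the other strand), and the KLK5 stretch holds neither. The KLK5 stretch is chr19:50953094-50953288, the KLK6 stretch chr19:50969674-50969841 and the KLK7 stretch chr19:50984100-50984314.
KLK5: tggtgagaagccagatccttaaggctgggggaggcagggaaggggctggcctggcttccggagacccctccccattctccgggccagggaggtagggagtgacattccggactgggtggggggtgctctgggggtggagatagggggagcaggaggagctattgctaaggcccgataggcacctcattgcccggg
KLK6: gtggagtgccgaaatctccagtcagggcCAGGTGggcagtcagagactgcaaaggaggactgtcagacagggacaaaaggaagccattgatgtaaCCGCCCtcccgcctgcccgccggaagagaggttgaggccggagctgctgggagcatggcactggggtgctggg
KLK7: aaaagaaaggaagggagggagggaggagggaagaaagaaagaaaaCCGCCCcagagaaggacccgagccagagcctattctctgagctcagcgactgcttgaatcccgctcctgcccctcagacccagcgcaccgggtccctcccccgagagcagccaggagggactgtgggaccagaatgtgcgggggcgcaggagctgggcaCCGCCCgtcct

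Motif positions are counted back from the start used by each RefSeq window, which is not the end of the printed stretch. The printed stretches end 56 (KLK5), 83 (KLK6) and 36 (KLK7) bases before that start. The KLK6 stretch holds an E-box 222 to 217 bases and a GC box 155 to 150 bases before the start of its window. The KLK7 stretch holds GC boxes 205 to 200 and 46 to 41 bases before the start of its window. Motifs were counted in full 300-base windows, from 250 bases before a start to 50 after it, with 12 such windows for 7 of the members and none given for KLK8. A GC box was found in 7 of the 12 (KLK6, KLK7, KLK11 and KLK13), against 45.0% of 35116 windows of all genes. An E-box was found in 5 of the 12 (KLK6, KLK7, KLK11 and KLK12), against 20.6% of all windows. The TATA box TATAAA was found in 0 of the 12 and in 11.5% of all windows, and the AP-1 motif TGANTCA, N being any base, in 0 of the 12 and in 7.71%. Both strands were read, and no motif as spelled here contains another. Windows of 1 gene overlap in part, so they are not independent. GC content of the 12 windows ranged from 55.3% to 70.7%, with a median of 64.2% beside 58.7% for all windows. The 12 windows held 3 to 23 CpG dinucleotides, with a median of 12 beside 14 for all windows.

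In HCC1937-EV the family was next to silent. The 8 genes together gave 0 to 3 counts per library and 15 counts over the 9 libraries, of which KLK5 gave 8, KLK6 2, KLK8 2, KLK12 2 and KLK7 1. KLK10, KLK11 and KLK13 had no count in any of the 9, and a count of 0 allows up to 3 counts, or 0.0206 CPM over the 9 libraries together. In HCC1937-OE-BRCA1 the same genes summed to between 1321 and 1889 CPM per library, and 97.5% to 98.6% of that sum came from KLK5, KLK6 and KLK10. Intervals and limits given for these counts cover counting error only, not the spread between libraries, and the libraries hold no molecular identifiers.

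**Figure D1:**
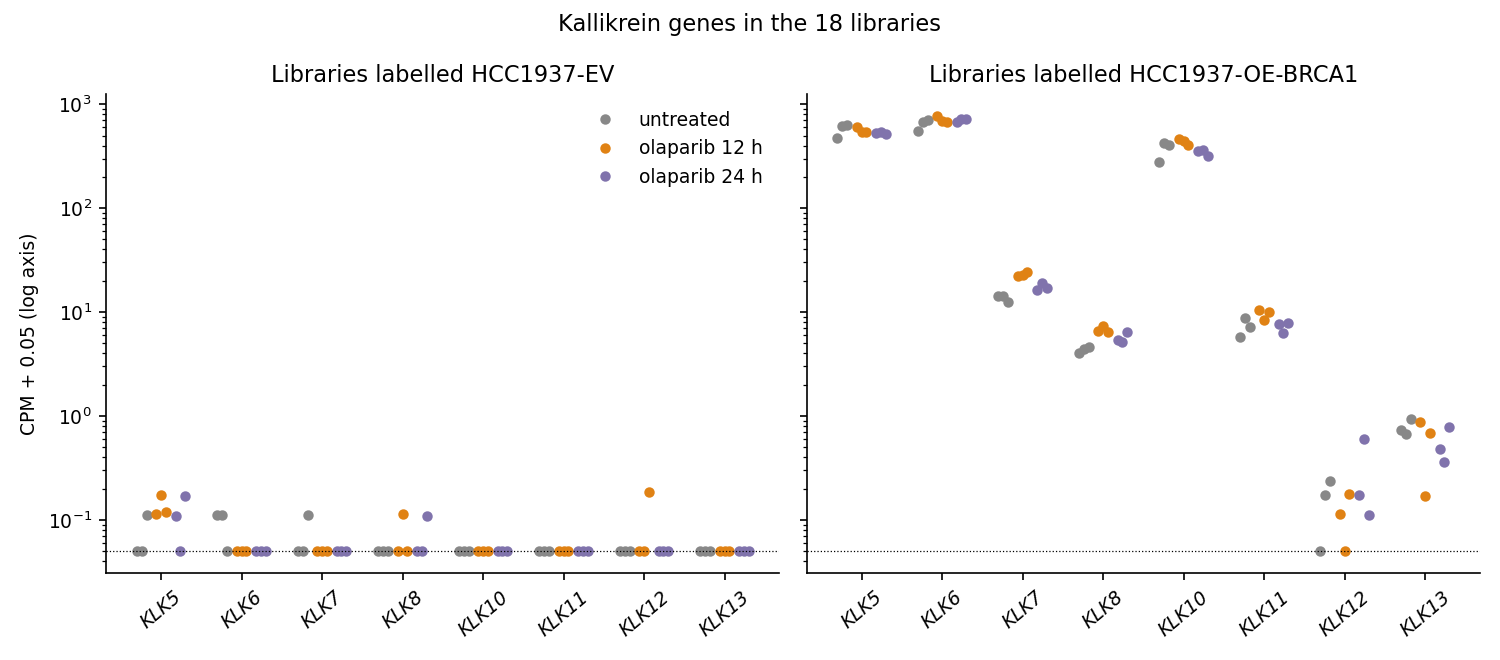
Level of each of the 8 kallikrein genes in all 18 libraries, as CPM + 0.05 on a log axis, with the libraries labelled HCC1937-EV on the left and those labelled HCC1937-OE-BRCA1 on the right. Each point is 1 library, colours give the condition, and the dotted line marks a count of 0; in HCC1937-OE-BRCA1 KLK5, KLK6 and KLK10 sit between 279.7 and 775 CPM, whereas no HCC1937-EV library passes 0.136 CPM for any member.

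KLK5 (chr19:50943303-50953093), the activator at the head of the epidermal cascade, was among the strongest transcripts of HCC1937-OE-BRCA1. The untreated libraries held 468, 617 and 632 CPM, the 12 h libraries 611, 542 and 539 CPM, and the 24 h libraries 524, 545 and 516 CPM. In HCC1937-EV the counts were 0, 0 and 1 untreated, 1, 2 and 1 at 12 h, and 1, 0 and 2 at 24 h. The groups of the 2 lines did not come near each other, and the lowest HCC1937-OE-BRCA1 library held 7607 counts. Over the 9 libraries of each line the ratio was 10079, with a 95% exact binomial counting interval of 5115 to 23347.

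KLK6 (chr19:50958631-50969673), a trypsin-like enzyme also known from brain as neurosin, had the highest CPM of the family. The untreated libraries held 548, 682 and 709 CPM, the 12 h libraries 775, 697 and 675 CPM, and the 24 h libraries 671, 726 and 719 CPM. HCC1937-EV gave 1 count in each of 2 untreated libraries and none in the other 7. With 100182 counts against 2 over the 9 libraries, the ratio was 50100 with a counting interval of 13869 to 413696. In untreated HCC1937-OE-BRCA1 KLK6 ranked 153 and KLK5 ranked 188 by mean CPM among the 35044 genes.

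KLK10 (chr19:51012739-51020175), first described as a gene of normal mammary epithelial cells that was low in breast cancer lines, completed the abundant trio. In HCC1937-OE-BRCA1 it measured 279.7, 422 and 402 CPM untreated, 464, 439 and 405 CPM at 12 h, and 353, 366 and 320.3 CPM at 24 h. All 9 HCC1937-EV libraries had 0 counts. The difference was at least 18570-fold, taking the limit of 3 counts over the 9 HCC1937-EV libraries. Replicate 1 of untreated HCC1937-OE-BRCA1 was the lowest of the 9 libraries for KLK5, KLK6 and KLK10 alike, so the 3 genes carry the same low library into every comparison with untreated cells.

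KLK7 (chr19:50976482-50984099), the chymotrypsin-like enzyme that cleaves corneodesmosin and desmocollin in skin, was lower but clearly present. In HCC1937-OE-BRCA1 it stood at 14.2, 14.1 and 12.5 CPM untreated, 22.4, 22.8 and 24.1 CPM at 12 h, and 16.2, 19.1 and 16.8 CPM at 24 h. The 12 h libraries were all above the 24 h libraries, and these all above the untreated ones. HCC1937-EV gave 1 count in its 9 libraries, a ratio of 2618 with a counting interval of 470 to 103463.

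KLK8 (chr19:50996007-51002711), known as neuropsin, and KLK11 (chr19:51022216-51028039), a trypsin-like member, were lower still. In HCC1937-OE-BRCA1 KLK8 was at 4.0, 4.37 and 4.60 CPM untreated, 6.47, 7.26 and 6.36 CPM at 12 h, and 5.35, 5.10 and 6.31 CPM at 24 h. Every treated KLK8 library lay above every untreated one, and the 12 h libraries lay above the 24 h libraries, the closest pair being 6.36 and 6.31 CPM. The counts of KLK8 were 805 against 2 over 9 libraries of each line, a ratio of 403 (counting interval 111 to 3330). KLK11 was at 5.73, 8.75 and 7.18 CPM untreated, 10.5, 8.41 and 9.92 CPM at 12 h, and 7.68, 6.26 and 7.79 CPM at 24 h, and it was at least 388-fold higher than in HCC1937-EV. For KLK11 the 12 h and untreated libraries overlapped.

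KLK13 (chr19:51056206-51065114) and KLK12 (chr19:51029092-51035230), both trypsin-like, were close to the limit of detection. KLK13 gave 11, 10 and 14 counts untreated, 13, 2 and 10 at 12 h, and 7, 5 and 12 at 24 h in HCC1937-OE-BRCA1, with none in HCC1937-EV, a difference of at least 28.0-fold. KLK12 gave 0, 2 and 3 counts untreated, 1, 0 and 2 at 12 h, and 2, 9 and 1 at 24 h. HCC1937-EV gave 2 KLK12 counts, both in 1 library at 12 h. The ratio for KLK12 over all libraries was 10, with a counting interval of 2.43 to 88.3.

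Condition by condition, every HCC1937-OE-BRCA1 library was above every HCC1937-EV library for 7 of the 8 members untreated, 7 of 8 at 12 h and 8 of 8 at 24 h. KLK12 was the exception untreated and at 12 h. Of the 18335 genes tested, 38.7% were placed in this way untreated, 39.7% at 12 h and 42.6% at 24 h; nothing is read from the members' count, since these levels entered their choice. KLK12, inside that choice, had 20 counts against 2 in HCC1937-EV. Outside it KLK9 had 16 counts against 0, KLK1 349 against 16 and KLK14 376 against 73.

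Because CPM grows with transcript length, levels of different genes were set side by side per kilobase of exonic length in GENCODE release 29. In untreated HCC1937-OE-BRCA1, KLK5 measured 346 ± 54.7 CPM per kilobase and KLK6 327 ± 43.6 (SD, n = 3), and their libraries overlapped. KLK10 followed at 95.4 ± 19.9 CPM per kilobase and KLK7 at 5.58 ± 0.395 (SD, n = 3), each apart from its neighbours. KLK8 at 2.32 ± 0.161 and KLK11 at 2.32 ± 0.485 CPM per kilobase (SD, n = 3) did not differ beyond their spread. KLK13 at 0.361 ± 0.0693 and KLK12 at 0.0588 ± 0.0542 CPM per kilobase (SD, n = 3) came last of the 8. The annotation has overlaps that bear on these values: 40.1% of the KLK8 exon bases lie in the same-strand gene ENSG00000269741, for which no row was analysed here. The same gene holds 93.7% of the KLK9 exon bases. Exon bases on the opposite strand overlap 12.2% of KLK5, 20.3% of KLK6, 6.2% of KLK10 and 9.0% of KLK12. The strand setting and the treatment of shared reads in counting are not given in the sources used here, so reads of overlapping genes cannot be told apart.

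The counts allowed the change of the family after olaparib to be followed in HCC1937-OE-BRCA1. All untreated libraries are labelled 0 h, so olaparib and time since 0 h cannot be told apart in any of these comparisons. KLK7 rose at 12 h, and no other member passed the test at 12 h or 24 h. Of the 8 members 7 had enough counts, KLK12 being left out, and each was tested within an edgeR fit of 18335 genes (quasi-likelihood F test, Benjamini-Hochberg adjusted p under 0.05). All conditions had been seen when the members were chosen, so these tests are not independent of that choice.

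KLK7 went from 13.6 ± 0.962 CPM untreated to 23.1 ± 0.893 CPM at 12 h (SD, n = 3 each), a log2 fold change of 0.77 (SE 0.147, adjusted p = 0.00648 by edgeR). It was 1 of 7 members tested, or 1 of 8 listed, beside 1.7% of all genes called higher and 0.605% called lower at 12 h. With the offset for GC content and length 50.2% of the 12 h calls were higher, against 73.8% without it. At 24 h KLK7 stood at 17.4 ± 1.52 CPM (SD, n = 3), a log2 fold change of 0.35 (SE 0.147, adjusted p = 0.151). The difference between 12 h and 24 h was not tested. Set against KLK5 in the same library, KLK7 gave 30.2, 22.9 and 19.7 per 1000 KLK5 CPM untreated, 36.6, 42.1 and 44.7 at 12 h, and 31.0, 35.1 and 32.5 at 24 h. The 12 h libraries were again above all others by this measure. Leaving out any 1 of the 6 libraries compared kept the 12 h log2 fold change of KLK7 between 0.71 and 0.79, with an adjusted p of at most 0.0453.

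KLK8 had the next largest change. It went from 4.32 ± 0.301 to 6.70 ± 0.491 CPM at 12 h (SD, n = 3 each), a log2 fold change of 0.63 (SE 0.211, adjusted p = 0.170), with every 12 h library above every untreated one. At 24 h it was at 5.59 ± 0.644 CPM (SD, n = 3) with a log2 fold change of 0.37 (SE 0.213, adjusted p = 0.315). KLK11 was at 7.22 ± 1.51 CPM untreated, 9.61 ± 1.08 CPM at 12 h and 7.24 ± 0.850 CPM at 24 h (SD, n = 3 each). Its log2 fold changes were 0.41 (adjusted p = 0.440) and 0.01 (adjusted p = 1), and they ran from 0.26 to 0.57 and from -0.14 to 0.17 when 1 library was left out, lowest without untreated replicate 1 and highest without untreated replicate 2. Neither gene passed the threshold.

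The abundant trio did not pass the test at either time. KLK5 measured 572 ± 90.4 CPM untreated, 564 ± 40.6 CPM at 12 h and 528 ± 14.9 CPM at 24 h (SD, n = 3 each), with log2 fold changes of -0.02 (adjusted p = 0.983) and -0.12 (adjusted p = 0.597). KLK6 measured 646 ± 86.1, 716 ± 52.5 and 705 ± 29.7 CPM (SD, n = 3 each), with log2 fold changes of 0.15 (adjusted p = 0.688) and 0.13 (adjusted p = 0.531). KLK10 measured 368 ± 76.8, 436 ± 29.5 and 346 ± 23.5 CPM (SD, n = 3 each), with log2 fold changes of 0.24 (adjusted p = 0.520) and -0.09 (adjusted p = 0.762). KLK13 had log2 fold changes of -0.47 (SE 0.581, adjusted p = 0.846) and -0.55 (SE 0.584, adjusted p = 0.625). Leaving out 1 library moved KLK13 between -0.94 and -0.0032 at 12 h (without 12 h replicates 1 and 2) and between -0.96 and -0.31 at 24 h (without 24 h replicates 3 and 2).

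The untreated groups of the trio carried most of the spread. Without untreated replicate 1 the log2 fold changes were 0.035 at 12 h and 0.019 at 24 h for KLK6, and 0.076 and -0.25 for KLK10; over all left-out libraries KLK6 reached 0.22 and 0.20, and KLK10 0.36 and 0.024. KLK5 ran from -0.15 to 0.056 at 12 h and from -0.24 to -0.039 at 24 h, lowest without untreated replicate 1 and highest without untreated replicate 3. With an offset for GC content and length, KLK6 passed the threshold at 24 h (log2 fold change 0.25, adjusted p = 0.0189) and KLK5 turned to 0.04 at 24 h. The fitted trend with GC content and length is given on the log2 scale for replicates 1, 2 and 3 of HCC1937-OE-BRCA1. For KLK5 it was -0.22, 0.18 and 0.13 untreated and -0.060, -0.073 and -0.20 at 24 h. For KLK6 it was -0.19, 0.15 and 0.11 untreated and -0.050, -0.056 and -0.17 at 24 h.

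The median log2 fold change of the 7 members tested was 0.24 at 12 h, the value of KLK10, beside 0.0037 for all genes, and 0.0051 at 24 h, beside 0.024 for all genes. At 24 h 0 of the 7 were called, beside 4.71% of all genes called higher and 3.55% called lower. In HCC1937-EV the members gave at most 4 counts per group; the 7 tested passed neither there nor for the difference between the lines, and changes were not detectable at this depth. In HCC1937-OE-BRCA1 CD14 rose by 0.94 on the log2 scale at both times (adjusted p = 0.000612 and 0.000342) and PECAM1 by 0.92 at 24 h (adjusted p = 0.00968). PTPRC, the other leukocyte gene, was at -0.23 and 0.17, the fibroblast gene COL1A1 at 0.32 and 0.37, PMEL at 0.16 and 0.49 and MLANA at -0.03 and 0.56, none of them called. Of 5 epithelial markers CDH1, KRT8 and KRT18 fell at 24 h (-0.35, -0.50 and -0.56), while EPCAM (0.11) and KRT19 (0.15) were not called. Of 4 basal markers KRT5 fell (-0.47), and KRT14 (0.54, adjusted p = 0.0944), KRT17 (-0.42, adjusted p = 0.0771) and EGFR (0.03) were not called. The part of these shifts in the kallikrein values was not tested.

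**Figure D2:**
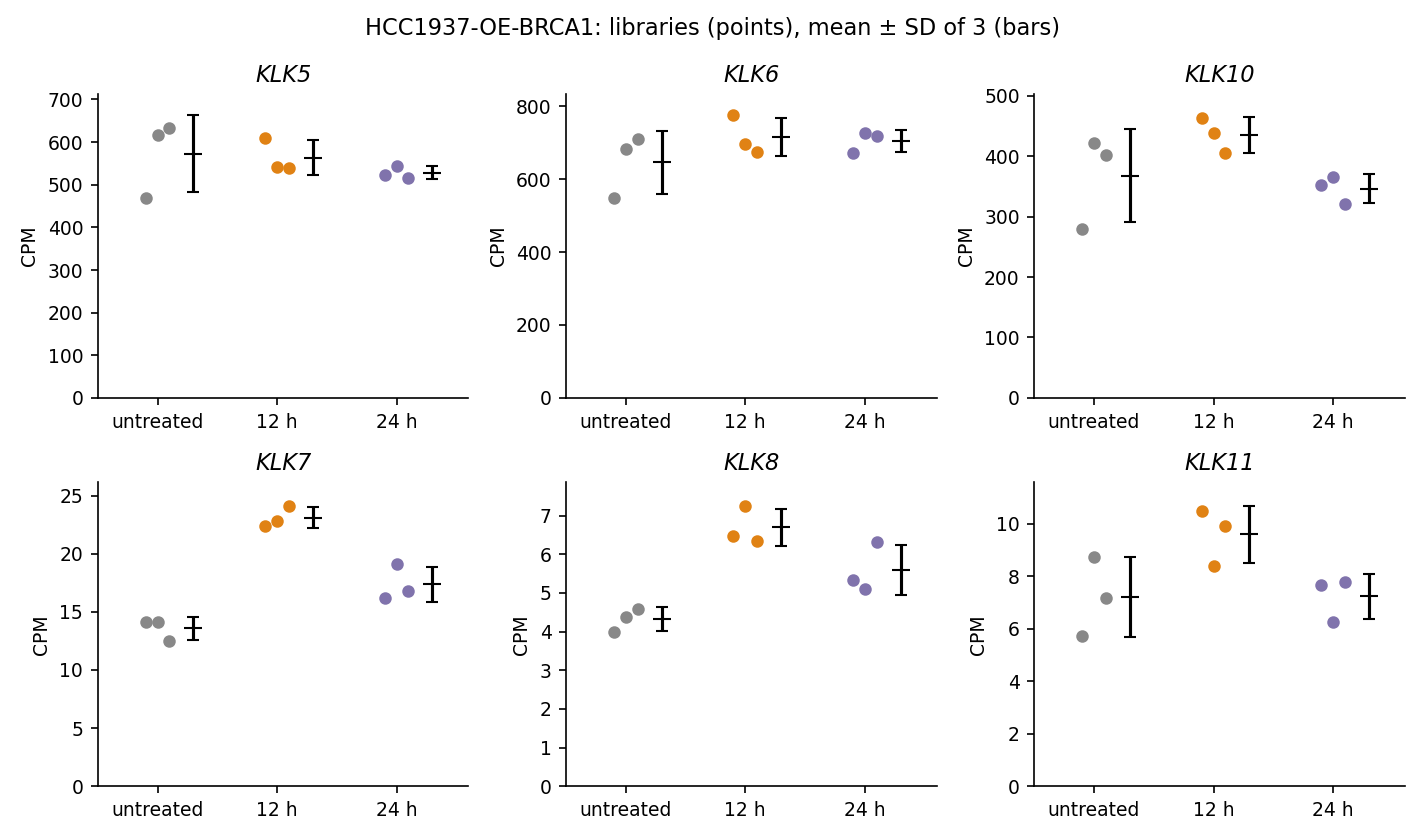
CPM of the 6 better-measured kallikreins in HCC1937-OE-BRCA1, untreated and after 12 h and 24 h of olaparib, on linear axes that start at 0. Points are libraries and bars the mean ± SD of 3; KLK7 lies at 12.5 to 14.2 CPM untreated and 22.4 to 24.1 CPM at 12 h, while the untreated libraries of KLK5, KLK6 and KLK10 spread widest.

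**Figure D3:**
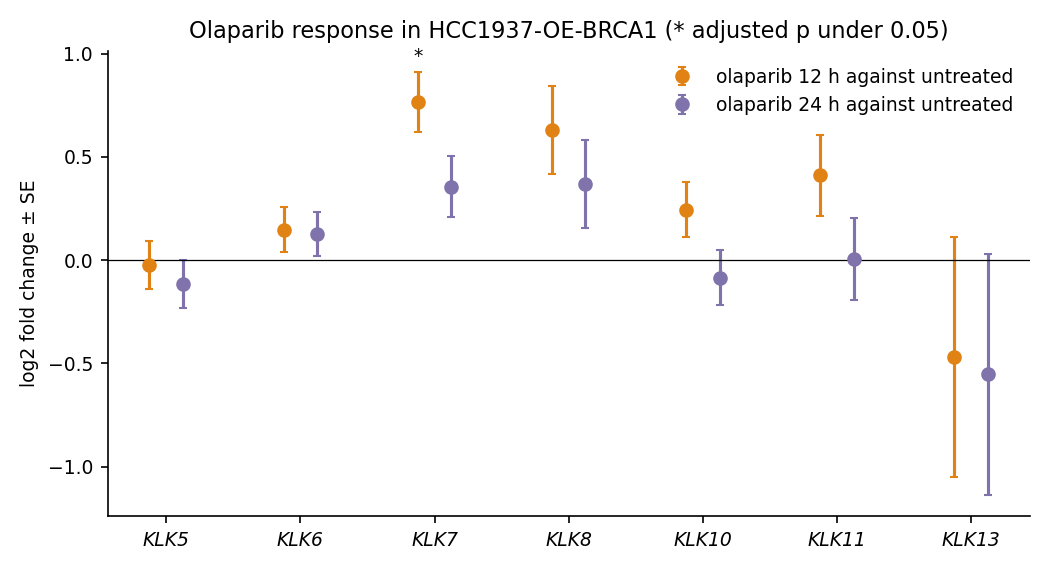
Log2 fold change ± SE of the 7 tested kallikreins in HCC1937-OE-BRCA1 after 12 h and 24 h of olaparib against untreated, from the fit over all genes. The asterisk marks KLK7 at 12 h (0.77), the one value with an adjusted p under 0.05; KLK13 has the widest error bars.

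Among the other kallikrein genes with more than 4 counts in a line, KLK1, KLK9 and KLK14 gave more counts in HCC1937-OE-BRCA1 and KLK2 gave fewer. The members were chosen by these levels, so no contrast between them and the other genes is read. KLK1, tissue kallikrein, gave 349 counts in HCC1937-OE-BRCA1 and 16 in HCC1937-EV over 9 libraries each, a ratio of 21.8 (counting interval 13.2 to 38.6), without overlap of the 9 libraries. KLK14, a trypsin-like enzyme of skin, gave 376 against 73 counts, a ratio of 5.15 (counting interval 4.0 to 6.71), and its untreated libraries overlapped. KLK2, the prostate gene next to the PSA gene KLK3, went the other way with 0 counts against 29, at most 0.103 of the HCC1937-EV level. KLK9 gave 16 counts against 0. KLK3, KLK4, KLK15, the pseudogene KLKP1 and the plasma kallikrein gene KLKB1 each had at most 4 counts per line. KLK1 and KLK14 were tested and passed in none of the olaparib comparisons in either line. For KLK1, HCC1937-EV gave 4 counts untreated, 5 at 12 h and 7 at 24 h. Changes of KLK1 in that line were hardly detectable at this depth. Per kilobase in untreated HCC1937-OE-BRCA1, KLK14 at 1.88 ± 0.823 CPM overlapped KLK11 and KLK1, and KLK1 was at 0.932 ± 0.181 CPM (SD, n = 3 each), above KLK13.

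Along the chromosome the 8 members lie in a row from KLK5 to KLK13 that also holds KLK9. The stretch from KLK1 to KLK14 spans 265098 bases and holds 21 rows of the table, 5 of them not kallikreins. Among those 5, ENSG00000269495, which runs antisense through KLK5 and KLK6, gave 142 counts in HCC1937-OE-BRCA1. ENSG00000279676, inside KLK6 on the same strand, gave 164 counts. ENSG00000267879, antisense across KLK7 and KLK8, gave 336 counts, and all 3 had no count in HCC1937-EV, which makes them at least 47.3-fold, 54.7-fold and 112-fold higher. PPIAP59 gave 14 and ENSG00000268906 gave 5 counts against 0. KLK4 and KLKP1, at the KLK1 side of KLK5, had 4 and 3 counts in HCC1937-OE-BRCA1, and KLK9, between KLK8 and KLK10, had 16.

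Outside the cluster 5 of the 6 tested neighbours had ratios of 1.22 to 2.80, and the other, CD33, had counts in HCC1937-EV alone. The tested genes beyond KLK1 gave ratios of 1.96 for C19orf48P (45394 against 23211 counts), 2.80 for ACP4 and 1.32 for SMIM47, whose libraries overlapped. Beyond KLK14 the ratio was 1.22 for CTU1 (4075 against 3334 counts) and 2.02 for IGLON5, both with overlapping libraries. CD33, a myeloid surface gene, had 99 counts in HCC1937-EV and 0 in HCC1937-OE-BRCA1, at most 0.0303 of the HCC1937-EV level. These ratios are descriptions over 9 libraries of each line, and the boundary of the difference was not tested.

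**Figure D4:**
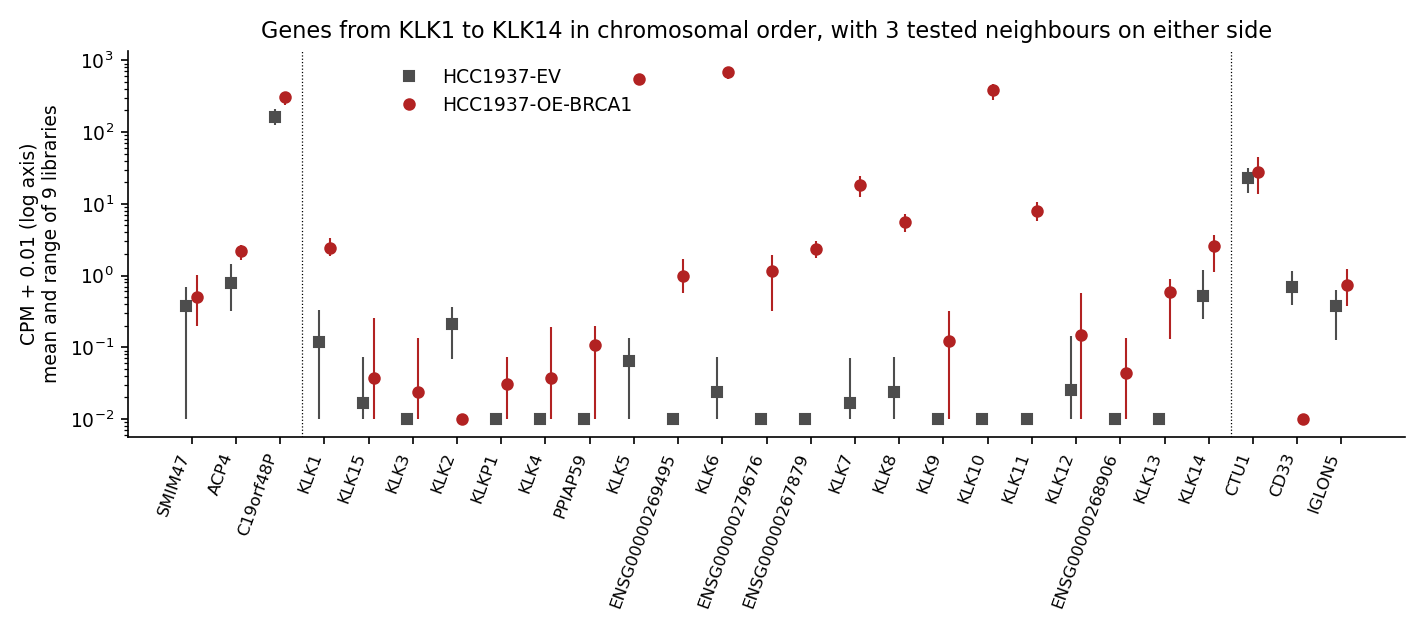
Mean and range over 9 libraries of CPM + 0.01, on a log axis, for the genes from KLK1 to KLK14 in chromosomal order and 3 tested neighbours on either side of the dotted lines. KLK5, KLK6 and KLK10 reach means of 555, 689 and 383 CPM in HCC1937-OE-BRCA1, with KLK4 and KLK9 near 0, and CTU1 is at 22.9 and 28.1 CPM in the lines labelled HCC1937-EV and HCC1937-OE-BRCA1.

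The genes most like KLK6 were sought by Pearson's r of log2(CPM + 0.5). Over the 18 libraries these were SUSD4, APBA2, TMEM30B, CPVL and MLPH, each with r = 0.9998. All 5 had no count in HCC1937-EV and means of 53.9, 14.4, 52.1, 154 and 33.6 CPM in HCC1937-OE-BRCA1. Such values reflect the split between lines, since 1090 genes passed r of 0.99, a count that includes KLK6 itself and other members. KLK5 and KLK10 reached 0.9996 and 0.9997, and KLK13 reached 0.907. Within the 9 HCC1937-OE-BRCA1 libraries the order was different, with ENSG00000287346 (0.963), SF3B4 (0.954), DNASE2 (0.954), LINC02870 (0.949) and GLI4 (0.943) at the top. KLK10 and KLK5 then had r of 0.706 and 0.676 with KLK6, KLK8 0.584, KLK11 0.575, KLK7 0.392 and KLK13 -0.017. The libraries share conditions, depth and base composition effects, so the values are descriptive.

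Genes that work with kallikreins were described from 4 lists, of inhibitors, other trypsin-like proteases, substrates with receptors, and hormone receptors with epithelial transcription factors. Of the 18335 genes tested, 29.5% had all 9 HCC1937-OE-BRCA1 libraries above all 9 HCC1937-EV libraries and 23.9% the reverse. The list counts also hold genes with too few counts to be tested, so they are not on the same footing as these shares. Tested were 10 of 15 inhibitors, 8 of 11 other proteases, 13 of 17 substrates and receptors and 12 of 12 transcription factors. Among inhibitors 8 of 15 with a row were higher in this sense in HCC1937-OE-BRCA1, 2 were lower and 5 overlapped. SPINT2, a Kunitz-type inhibitor, averaged 2.55 CPM in HCC1937-EV and 566 CPM in HCC1937-OE-BRCA1, and SLPI, a secreted leukocyte protease inhibitor, 29.4 and 271 CPM. The intracellular serpin SERPINB6 went the other way at 336 and 51.8 CPM. SPINK5, the epidermal inhibitor known for restraining KLK5, averaged 0.042 and 0.844 CPM. It was singled out after its values were seen.

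The counts that follow stand beside the 29.5% higher and 23.9% lower of the genes tested. Among the other proteases 6 of 11 were higher in HCC1937-OE-BRCA1, none lower, and 5 overlapped. ST14, matriptase, averaged 5.67 and 683 CPM, PRSS8, prostasin, 1.98 and 52.5 CPM, and PLAU, urokinase, 0.572 and 22.6 CPM. Of the substrates and receptors 11 of 17 were higher, 1 lower and 5 overlapped. APP averaged 629 and 1088 CPM, IGFBP3 8.26 and 623 CPM, and the neural adhesion gene L1CAM 818 and 14.6 CPM. The corneodesmosome genes CDSN and DSG1, substrates in skin, had 4 and 9 counts over the 9 HCC1937-OE-BRCA1 libraries and none in HCC1937-EV. In the same list DSC1 had 65 counts against 1 and FLG 175 against 0, both without overlap of the lines. These genes too were named after their values were seen. Of the transcription factors 10 of 12 were higher, 1 lower and 1 overlapped. ELF3, an epithelial factor, averaged 52.3 and 337 CPM, the glucocorticoid receptor gene NR3C1 131 and 71.2 CPM, and KLF4 69.8 and 79.3 CPM.

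**Figure D5:**
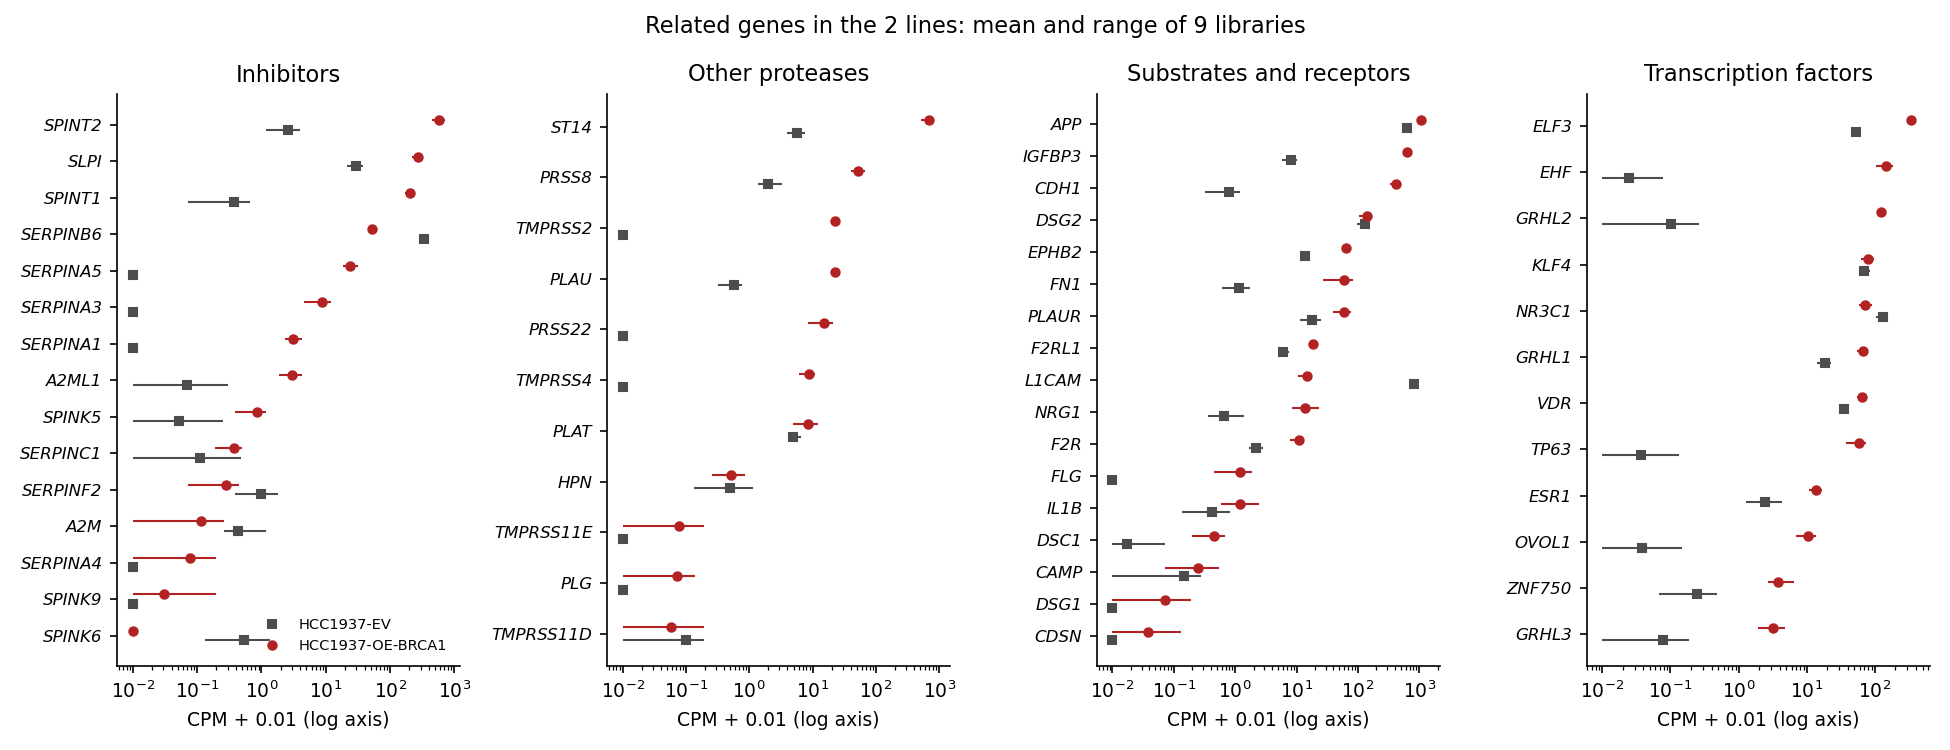
Mean and range over 9 libraries of CPM + 0.01, on log axes, for every gene with a row in the 4 lists of inhibitors, other proteases, substrates with receptors, and transcription factors, ordered by level in HCC1937-OE-BRCA1. SPINT2, ST14, IGFBP3 and CDH1 stand far apart between the lines, while SERPINB6, L1CAM and NR3C1 are higher in HCC1937-EV.

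After olaparib few genes of these lists passed the test in HCC1937-OE-BRCA1. The shares of all genes called there were 1.7% higher and 0.605% lower at 12 h, and 4.71% higher and 3.55% lower at 24 h, and the median log2 fold changes of all genes were 0.0037 and 0.024. Among inhibitors 1 of 10 tested rose at each time and none fell. It was SERPINA3, a serpin that binds chymotrypsin-like proteases, at 5.65 ± 1.17 CPM untreated, 10.3 ± 0.709 CPM after 12 h and 10.3 ± 1.74 CPM after 24 h (SD, n = 3 each). Its log2 fold change was 0.87 at both times (adjusted p = 0.0300 and 0.0151). The 12 h call was lost without any 1 of the libraries compared except untreated replicate 1 (adjusted p up to 0.147), and the 24 h call without untreated replicate 2 or 3 or 24 h replicate 2 or 3 (up to 0.0914). The list medians were 0.12 and 0.16.

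Among the other proteases 1 of 8 rose at 12 h (1.7% of all genes), and at 24 h 1 rose and 1 fell (4.71% and 3.55% of all genes). PLAT, tissue plasminogen activator, went from 5.45 ± 0.955 to 11.5 ± 0.629 CPM at 12 h (SD, n = 3 each; log2 fold change 1.08, adjusted p = 0.00027). At 24 h it stood at 8.08 ± 0.642 CPM (SD, n = 3; 0.57, adjusted p = 0.0332), a call lost without any 1 library except untreated replicate 3 (adjusted p up to 0.151). ST14 fell at 24 h from 719 ± 136 to 547 ± 27.5 CPM (SD, n = 3 each; -0.39, adjusted p = 0.0460), a call lost without any 1 library except untreated replicate 1 (adjusted p up to 0.192) and with the offset for GC content and length (-0.20, adjusted p = 0.0622). The list medians were 0.19 and -0.01.

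Of 13 substrates and receptors tested, 2 rose and 1 fell at 12 h (1.7% and 0.605% of all genes), and 2 rose and 2 fell at 24 h (4.71% and 3.55% of all genes). FN1, fibronectin, went from 35.7 ± 8.65 to 69.6 ± 2.96 and 71.3 ± 9.94 CPM (SD, n = 3 each; log2 fold changes 0.96 and 0.996, adjusted p = 0.00273 and 0.00116). NRG1, the neuregulin gene, fell from 21.4 ± 2.41 to 9.68 ± 1.83 and 10.6 ± 1.11 CPM (SD, n = 3 each; -1.14 and -1.02, adjusted p = 0.00128 and 0.00203). PLAUR, the urokinase receptor, went from 43.8 ± 4.84 to 71.9 ± 5.13 CPM after 12 h (0.72, adjusted p = 0.00127) and 60.5 ± 3.49 CPM after 24 h (SD, n = 3 each; 0.47, adjusted p = 0.0210). Its 24 h call was lost without untreated replicate 3 or any 24 h library (adjusted p up to 0.0922). CDH1 fell at 24 h from 433 ± 42.9 to 340.1 ± 14.8 CPM (SD, n = 3 each; -0.35, adjusted p = 0.0493), a call lost without any 1 library except untreated replicate 2 (up to 0.157). The list medians were 0.06 and 0.17.

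No transcription factor passed the test at 12 h, when ELF3 was at 355 ± 4.66 CPM and EHF at 148 ± 6.98 CPM (SD, n = 3 each). At 24 h 3 of 12 rose, beside 4.71% of all genes, and none fell, beside 3.55%. TP63, the p63 gene of basal epithelia, went from 42.8 ± 4.30 to 71.3 ± 3.59 CPM (SD, n = 3 each; log2 fold change 0.74, adjusted p = 0.00420), and KLF4 from 65.4 ± 3.44 to 92.3 ± 4.45 CPM (SD, n = 3 each; 0.50, adjusted p = 0.00227). EHF went from 119 ± 19.6 to 170.1 ± 14.9 CPM (SD, n = 3 each; 0.51, adjusted p = 0.0150), a call lost without untreated replicate 2 or 3 or 24 h replicate 2 or 3 (adjusted p up to 0.0908). The list medians were 0.28 at 12 h and 0.21 at 24 h.

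In HCC1937-EV no gene of the 4 lists passed the test at 12 h, when 0.0273% of all genes were called higher and 0.0164% lower. There SERPINB6 averaged 351 CPM, SLPI 27.5 CPM, PLAT 5.55 CPM, ST14 5.43 CPM, L1CAM 784 CPM, APP 615 CPM, NR3C1 130.2 CPM and KLF4 75.6 CPM. At 24 h, with 8.62% of all genes called higher and 5.12% lower, ST14 rose (log2 fold change 0.54, adjusted p = 0.0355) and PLAUR fell (-0.53, adjusted p = 0.0137). ESR1, the estrogen receptor gene, rose (0.68, adjusted p = 0.0432), while NR3C1 and the epithelial factor GRHL1 fell (-0.43 each, adjusted p = 0.0386 and 0.0168). No inhibitor passed, with SERPINB6 at 334 CPM and SLPI at 34.6 CPM. All 5 calls were lost without untreated replicate 1, and PLAUR also without 24 h replicate 1 (adjusted p up to 0.0532). ST14 and GRHL1 were also lost without untreated replicate 2 or 24 h replicate 1 or 2 (up to 0.174 and 0.0937), NR3C1 without any library but 24 h replicate 3 (up to 0.137) and ESR1 without any library but 24 h replicate 1 (up to 0.161). With the offset for GC content and length, ST14, NR3C1 and GRHL1 were not called (log2 fold changes 0.18, -0.16 and -0.24).

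The change with olaparib was also compared between the lines. At 12 h, with 0.518% of all genes called in either direction, no listed gene passed; the most abundant genes of the lists there were SPINT2, SERPINB6, ST14, PRSS8, APP, L1CAM, ELF3 and NR3C1. At 24 h 1 of 10 inhibitors tested, 2 of 8 other proteases, 4 of 13 substrates or receptors and 3 of 12 transcription factors passed. Of all genes 19.4% were called in either direction. ST14 and PLAUR moved in opposite directions, ST14 rising in HCC1937-EV and falling in HCC1937-OE-BRCA1 (difference -0.93 on the log2 scale, adjusted p = 0.00451) and PLAUR the reverse (1.001, adjusted p = 0.00143). Both differences kept their call without any 1 of the 12 libraries compared, but with the offset for GC content and length that of ST14 was -0.37 (adjusted p = 0.0665) and not called.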

How the data were processed

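RNA was extracted with TRIzol, libraries were made with the NEBNext Ultra II kit, and the authors deposited raw counts of reads per gene, whole numbers without normalization, for 18 libraries. The submitters' processing notes name HISAT2, featureCounts, DESeq2 and GRCh38 (hg38); the annotation and the strand setting are not given in the sources used here. The 18 single-library tables equal their columns of the joint table. Versioned Ensembl identifiers were matched to symbols without the version (34945 of 35044); 96.7% were found in GENCODE release 29, 46.33% with the same version, which gave positions, exonic lengths and GC content. Promoter windows are from RefSeq (GRCh38.p14).

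The members, the gene lists and the rule for named genes were chosen with earlier results of these data known. Cell line, time and replicate came from the sample titles. Counts were filtered with filterByExpr (18335 genes) and fitted over the 18 libraries, with 1 mean per condition and TMM library sizes, by edgeR 4.0.16's quasi-likelihood test in R 4.3.3, called at an adjusted p under 0.05. The biological coefficient of variation was 12.9%. The script was tested on simulated data. Ratios between lines are of pooled CPM, with 95% exact binomial intervals; a count of 0 over a group was given a limit of 3. Named genes were all kallikreins, the cluster and its 3 tested neighbours on either side, up to 4 called genes per list and comparison (otherwise the 2 most abundant), up to 3 per list for the lines, and the 5 genes most like KLK6. Totals of 15081973 to 17571922 counts put 3 counts at 0.177 to 0.204 CPM in a library. Alternatives were DESeq2 1.42.0 (size factors; Wald test), other filters, a minimum fold, the compared libraries alone, a replicate block, an offset from a trend on GC content and length (mgcv 1.9.3), plain library totals for the lines, and leaving out each library. PGR, CD3E and SERPINA12 were not analysed here, and a marker gene of the lines is not reported here.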

Additional observations from a re-analysis of the deposited data

Results flagged for a closer look

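The test of the difference between the lines in the change with olaparib at 24 h (edgeR, Benjamini-Hochberg adjustment over all genes) picked out 10 listed genes. Differences are given as the log2 fold change in HCC1937-OE-BRCA1 minus that in HCC1937-EV. In the lists 10 inhibitors, 8 other proteases, 13 substrates or receptors and 12 transcription factors were tested. Of all genes 19.4% were called in either direction, so nothing is read from the number of these listed genes. Among them FN1 differed by 1.49 (adjusted p = 0.0116), PLAUR by 1.001 (adjusted p = 0.00143) and KLF4 by 0.65 (adjusted p = 0.00320), and these 3 kept their call without any 1 of the 12 libraries. ST14 differed by -0.93 (adjusted p = 0.00451) and GRHL1 by 0.64 (adjusted p = 0.00701); both kept their call without any 1 library, and with the offset for GC content and length they were at -0.37 and 0.35 and not called. CDH1 differed by -1.09 (adjusted p = 0.0158), and lost its call without untreated HCC1937-EV replicate 1 (-0.86, adjusted p = 0.0743). SPINT2 differed by -1.16 (adjusted p = 0.0193), and lost its call without that library (-0.93, adjusted p = 0.0801) or without HCC1937-EV 24 h replicate 2 (adjusted p = 0.0784). In HCC1937-EV FN1 averaged 1.42 CPM untreated and 1.01 CPM at 24 h, CDH1 0.659 and 1.11 CPM, and SPINT2 1.79 and 3.24 CPM. The differences of these genes therefore rest on low counts in that line.

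NR3C1 differed by 0.64 (adjusted p = 0.0228), PLAT by 0.79 (adjusted p = 0.0234) and DSG2 by 0.57 (adjusted p = 0.0419). NR3C1 lost its call without any 1 of 6 of the 12 libraries, namely HCC1937-EV untreated replicate 1 and 24 h replicates 1 and 2, and HCC1937-OE-BRCA1 untreated replicates 2 and 3 and 24 h replicate 3 (values from 0.52 to 0.81). PLAT lost it without any 1 of 4, namely replicate 2 of HCC1937-EV untreated, of HCC1937-EV 24 h or of HCC1937-OE-BRCA1 untreated, and HCC1937-OE-BRCA1 24 h replicate 3 (0.70 to 0.94). DSG2 lost it without any 1 of 10, all but HCC1937-EV 24 h replicate 3 and HCC1937-OE-BRCA1 untreated replicate 1 (0.42 to 0.72). With the offset for GC content and length none of these 3 was called. BRCA1 itself differed by 0.54 (adjusted p = 0.0230). Of the 8 kallikreins 7 were tested in this way and none was called (adjusted p of at least 0.208, that of KLK6); HCC1937-EV gave at most 4 counts per group for any of them, so a difference was not detectable at this depth. Of the other kallikreins KLK14 differed by 1.56 (adjusted p = 0.0644) and KLK1 by -0.42 (adjusted p = 0.852), neither called. For KLK1 HCC1937-EV gave at most 7 counts per group, so a difference was hardly detectable.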

How the results depend on the processing

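KLK7 at 12 h kept its call under all 13 alternatives that tested it, 7 settings and 6 left-out libraries (0.71 to 0.79), but fell short of a minimum log2 fold change of 1, which left 0 members called. Requiring 10 counts in every library left no member tested. The offset for GC content and length called 1 member at 24 h, KLK6 (0.25), with or without the block. Signs turned for changes near 0: KLK11 at 24 h to -0.0045 (DESeq2 size factors), -0.0067 (DESeq2 Wald test), -0.043 (no filter), -0.015 (compared libraries alone), and -0.14, -0.039 and -0.050 without untreated replicate 1, 24 h replicate 1 or 24 h replicate 3 of HCC1937-OE-BRCA1 (up to 0.17 over the left-out libraries); KLK5 at 24 h to 0.041 with the offset (with or without the block), and at 12 h to 0.036, 0.056 and 0.0027 without untreated replicate 2, untreated replicate 3 or 12 h replicate 3 (down to -0.15); KLK10 at 24 h to 0.024 without untreated replicate 2 (down to -0.25). The causes were not tested.

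Counts of all genes called were 8 (HCC1937-EV, 12 h), 2520 (HCC1937-EV, 24 h), 423 (HCC1937-OE-BRCA1, 12 h), 1515 (HCC1937-OE-BRCA1, 24 h), 95 (difference, 12 h) and 3554 (difference, 24 h). In HCC1937-EV at 12 h 2963 genes had an unadjusted p under 0.05. DESeq2's Wald test gave 352 and 698 at 12 h in the lines and 399 for the 12 h difference. No filter gave 818 in HCC1937-EV at 12 h and 644 for the 12 h difference. The minimum fold gave 1, 346, 125, 302, 47 and 1147 in the order above. The compared libraries alone gave 0 and 5173 in HCC1937-EV, 809 in HCC1937-OE-BRCA1 at 24 h and 37 for the 12 h difference. The offset gave 137 in HCC1937-EV at 12 h, 1115 and 2827 in HCC1937-OE-BRCA1 and 579 for the 12 h difference. Higher calls were 62.7% in HCC1937-EV at 24 h and 72.6% for the 12 h difference, against 50.8% and 46.5% with the offset.

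Leaving out 1 library gave 1 to 462 (462 without HCC1937-EV 12 h replicate 1) and 462 to 2227 (462 without HCC1937-EV untreated replicate 1) in HCC1937-EV. It gave 257 to 468 and 644 to 3329 (3329 without untreated replicate 1) in HCC1937-OE-BRCA1, and 49 to 772 and 2062 to 5502 for the differences, both highest without untreated HCC1937-OE-BRCA1 replicate 1. The members above HCC1937-EV without overlap stayed at 7 to 8 untreated, 7 at 12 h and 8 at 24 h.

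Replicate numbers did not pair the samples: the correlation of deviations between same-numbered libraries ran from -0.227 to 0.147, and 5 of 18 libraries correlated best with their own number. A replicate block gave 1, 1958, 364, 1179, 77 and 3160 calls in the order above. Among the listed genes the block ended the calls of SERPINA3 at 12 h (adjusted p = 0.0638) and of CDH1 and ST14 at 24 h in HCC1937-OE-BRCA1 (0.0604 and 0.0847), of ST14 and NR3C1 at 24 h in HCC1937-EV (0.0564 and 0.0677) and of DSG2 for the 24 h difference (0.0654), with each log2 fold change keeping its sign. The compared libraries alone ended the 24 h calls of PLAT, ST14, PLAUR, CDH1 and EHF in HCC1937-OE-BRCA1 (adjusted p = 0.103, 0.104, 0.0658, 0.0845 and 0.0545) and of ESR1 in HCC1937-EV (0.0531), and no filter those of PLAT at 24 h in HCC1937-OE-BRCA1 and for the difference (0.126 and 0.106). With the offset added to the block, 42 genes were called in HCC1937-EV at 12 h, 1082 and 2636 in HCC1937-OE-BRCA1 and 483 for the 12 h difference.

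Depth limits KLK12 and KLK13 in both lines and every member in HCC1937-EV.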
